A study of Caenorhabditis elegans with 9 samples.

Results

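The comparison described here set 3 libraries labelled PATR1 against 3 libraries labelled UNC5, with 3 libraries labelled WT giving the background level. Each library holds messenger RNA of whole young adults of the nematode Caenorhabditis elegans, so the comparison used 6 of the 9 libraries of the study and took the other 3 as a reference. Libraries were assigned to the groups by their labelled genotype, and all 17512 of 46926 annotated genes with enough counts entered the test. Synchronized populations of a wild type and of a strain whose unc-5 gene holds a stop codon were grown, per the labels, and their total RNA was selected for poly(A) tails. The labels do not say which of the labels UNC5 and PATR1 carries the stop allele, nor what PATR1 stands for, and each group is called by its label. They also do not say whether replicates came from separate cultures. Each p-value thus refers to the spread among libraries of the same label, which the gene-wise test estimated over all 9 libraries together. That spread may be technical. Culture, exact age and genotype cannot be told apart in this design.

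unc-5 encodes a receptor for netrin, a secreted cue that directs growing axons and migrating cells along the body wall. In C. elegans the receptor is known for moving cells and axons away from the netrin source UNC-6, and animals that lack it move poorly. A whole-animal library at the young adult stage mixes RNA of the nervous system, muscle, epidermis, intestine and pharynx with that of the gonad, which holds stored sperm and growing oocytes and supplies a large share of the RNA. In such bulk samples, fewer cells of a type and less RNA per cell cannot be told apart.

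Levels are given in CPM, the usual counts-per-library unit, here a gene's counts over the TMM-scaled size of its library. A gene was called when edgeR's quasi-likelihood test gave a Benjamini-Hochberg adjusted p below 0.05 with more than a 2-fold difference. "Higher" and "lower" mean in PATR1 relative to UNC5 and, in counts of gene groups, rest on the adjusted p alone. The 9 libraries held 38673206 to 60642199 gene counts, and libraries of a genotype had Spearman correlations of 0.998 to 0.999, against 0.964 to 0.965 between UNC5 and PATR1. Reads with no place in the genome were 0.667% to 0.937% of the reads in UNC5 and 2.86% to 6.02% in PATR1, and their part in the results was not tested. Every defining marker of body wall muscle, pharyngeal muscle, intestine, epidermis, neurons, germline, oocytes and sperm was detected. The embryonic markers med-1 and end-1 and the male neuron markers lov-1 and cwp-1 were too low to be tested. Of the embryonic markers that were tested, pes-1 was higher (log2 fold change 0.76 ± 0.17, adjusted p = 2.3e-04). The other, end-3, did not pass (log2 fold change 0.595 ± 0.38, adjusted p = 0.155), nor did the male neuron marker pkd-2 (log2 fold change 0.139 ± 0.36, adjusted p = 0.743).

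The non-WT groups differed from each other at 3666 of the 17512 genes, 20.9% of those tested. Of these, 1656 genes were higher in PATR1 (9.46%) and 2010 were lower (11.5%). With no low-count filter the order turned, with 1984 higher and 1793 lower. The directions were unequal in size. Beyond 8-fold there were 20 higher and 188 lower genes, and beyond 32-fold 2 and 54. On the adjusted p alone 13774 genes differed (78.7%), 6614 of them higher (37.8%) and 7160 lower (40.9%), and the median log2 fold change of all genes was -0.04. UNC5 and PATR1 libraries were fully apart at 79.5% of the genes, so a lack of overlap is the common case here.

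The WT level stood differently for the called genes of each direction. Among the 1656 called genes that were higher in PATR1, the WT mean lay above both non-WT means at 1430 (86.4%), between them at 10.99% and below both at 44 (2.66%). For these genes UNC5 was thus mostly the group farthest below WT. Among the 2010 called genes that were lower in PATR1, the WT mean lay between the non-WT means at 1385 (68.9%), above both at 438 (21.8%) and below both at 187 (9.30%). These are counts of the order of group means, with no test.

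**Figure D1:**
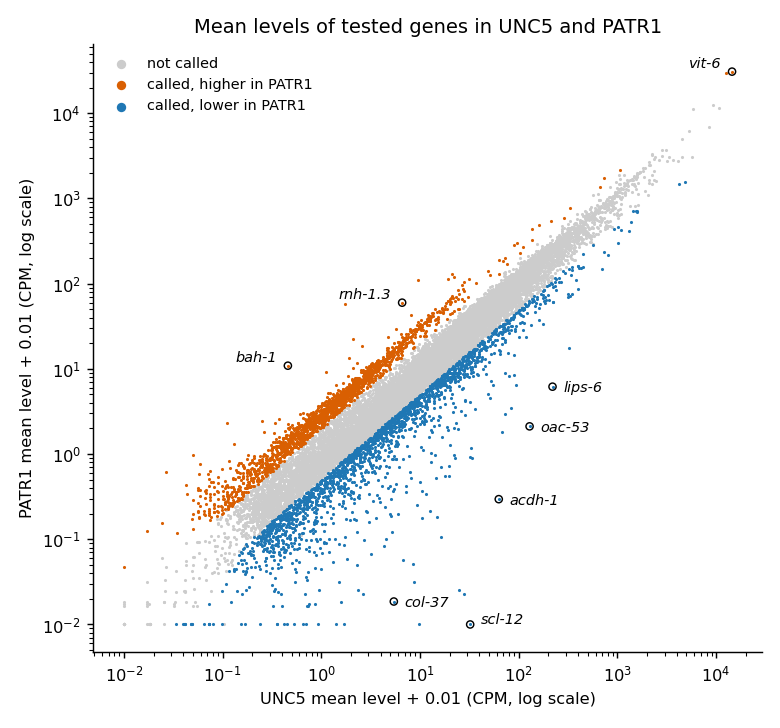
Mean level of each tested gene in UNC5 (x axis) and PATR1 (y axis), in CPM plus 0.01 on log scales, with 1 point per gene and called genes in colour. The lower genes reach much farther from the diagonal than the higher ones, down to scl-12, which had 0 counts in PATR1.

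unc-5 itself (WBGene00006745, minus strand of chromosome IV, 5495664 to 5528338 in WBcel235) was detected in both non-WT groups. It stood at 10.1, 9.88 and 10.3 CPM in UNC5 and 13.8, 13.8 and 12.8 CPM in PATR1, with all 3 PATR1 libraries above all 3 UNC5 libraries. PATR1 was 1.33-fold higher (log2 fold change 0.41 ± 0.062, adjusted p = 4.5e-07), under the 2-fold limit. An exact two-sided permutation test of the 3 against 3 libraries gave p = 0.1, the smallest value it can give. The WT libraries, at 16.7, 18.4 and 18.3 CPM, lay above both groups. patr-1 (WBGene00009661, chromosome II, 11774668 to 11777943), which encodes a protein of the P-bodies where messenger RNAs are decapped, stood at 292, 299 and 309.9 CPM in UNC5 and 298, 288 and 292 CPM in PATR1. Its groups overlapped (log2 fold change -0.04 ± 0.032, adjusted p = 0.29; exact two-sided permutation test, p = 0.3).

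The largest falls were in genes for secreted proteins, membrane-bound O-acyltransferase homologs, chemoreceptors, nuclear hormone receptors and 1 metabolic enzyme. scl-12 (WBGene00019178, chromosome V, 3812591 to 3813437), which encodes a secreted protein of the SCP family, stood at 31.2, 31.7 and 33.8 CPM in UNC5 and 0 in all 3 PATR1 libraries, with 4060 counts in UNC5 against none. Its UNC5 libraries were all high and its PATR1 libraries had no count at all, while WT held 5.91, 4.99 and 4.81 CPM. With a floor of 3 counts over the PATR1 group, scl-12 was at least 1464-fold lower in PATR1 (adjusted p = 2.7e-29). scl-13, its neighbour from the same family, stood at 9.37, 9.66 and 10.5 CPM in UNC5 and 0 in all 3 PATR1 libraries, at least 447-fold lower, and at 4.27, 4.27 and 4.27 CPM in WT.

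scl-11 (chromosome IV, 13051373 to 13052219), a further member of the family on another chromosome, stood at 25.03, 24.6 and 25.4 CPM in UNC5 and 0.0452, 0 and 0 CPM in PATR1. Only 1 PATR1 library held any of its counts, 2 in all, and the ratio of UNC5 to PATR1 was 1700.5 (95% exact counting interval 470.4 to 14048). WT was in between, at 1.38, 1.27 and 1.16 CPM, nearer to PATR1 than to UNC5 on the CPM scale. Of the 15 scl genes tested, 7 were lower (46.7%, against 40.9% of all genes) and 3 higher. All 7 were lower beyond 2-fold, as were 11.5% of all genes. The median log2 fold change of the 15 genes was -1.01. That median was -0.56 without UNC5 replicate 3, -0.64 without PATR1 replicate 1 and -3.48 with at least 5 CPM in 3 libraries. F57F4.2, a gene with a clone name, also went from 26.3, 27.8 and 29.3 CPM in UNC5 to 0, 0 and 0.0378 CPM in PATR1, 2 counts in all, with 2.16, 2.12 and 1.68 CPM in WT.

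acdh-1 (WBGene00016943, plus strand of chromosome I, 6497436 to 6499560) encodes an acyl-CoA dehydrogenase of the propionate shunt, the breakdown route that C. elegans uses when vitamin B12 is scarce. It stood at 66.1, 62.4 and 59.9 CPM in UNC5, 0.339, 0.309 and 0.208 CPM in PATR1 and 21.4, 19.99 and 20.2 CPM in WT. All UNC5 libraries were above WT and all PATR1 libraries far below it, so no groups overlapped. The difference between the non-WT groups was 224-fold (log2 fold change -7.80 ± 0.096, adjusted p = 3.6e-34). Of the 20 propionate and vitamin B12 genes tested, 15 were lower and 4 higher (median -0.32). hphd-1, the shunt's hydroxypropionate-oxoacid transhydrogenase, stood at 50.03, 51.7 and 51.3 CPM in UNC5 and 22.3, 22.3 and 22.9 CPM in PATR1 (log2 fold change -1.18 ± 0.042, adjusted p = 4.3e-22). nhr-68, a nuclear receptor needed to switch the shunt on and the next largest change after acdh-1 among its members of at least 5 CPM, stood at 24.9, 25.5 and 24.5 CPM in UNC5 and 9.21, 10.9 and 9.46 CPM in PATR1 (log2 fold change -1.35 ± 0.057, adjusted p = 5.2e-20). nhr-114, a receptor of the same vitamin B12 network, had a log2 fold change of -0.96.

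oac-53 (chromosome V, 16623857 to 16627970), an O-acyltransferase homolog, stood at 132, 130.2 and 125 CPM in UNC5 and 2.33, 2.17 and 1.81 CPM in PATR1, with WT at 3.39, 3.71 and 3.59 CPM. Here PATR1 lay nearer to WT (-0.77 on the log2 scale) and UNC5 was the group that stood apart. The UNC5 level was 61.8 times the PATR1 level (log2 fold change -5.95 ± 0.061, adjusted p = 1.7e-36). srr-2, a serpentine receptor gene, had the same order, with 69.4, 67.3 and 65.7 CPM in UNC5, 1.90, 1.73 and 1.85 CPM in PATR1 and 2.82, 2.29 and 2.79 CPM in WT (log2 fold change -5.20 ± 0.068, adjusted p = 1.7e-33). srw-85, another serpentine receptor gene, differed from it in the place of WT: 34.1, 33.5 and 33.8 CPM in UNC5, 1.02, 0.902 and 0.775 CPM in PATR1 and 18.6, 19.3 and 18.99 CPM in WT (log2 fold change -5.24 ± 0.080, adjusted p = 9.6e-32). lips-6, a lipase homolog, stood at 226, 214 and 220.3 CPM in UNC5, 6.38, 5.98 and 6.14 CPM in PATR1 and 26.3, 27.5 and 27.8 CPM in WT, and the non-WT groups lay on opposite sides of WT (log2 fold change -5.16 ± 0.045, adjusted p = 4.4e-38). nhr-260, a nuclear hormone receptor gene, went from 18.7, 20.1 and 20.4 CPM in UNC5 to 0.769, 0.387 and 0.491 CPM in PATR1 (log2 fold change -5.16 ± 0.11, adjusted p = 1.1e-27), with WT at 2.65, 2.61 and 2.43 CPM between them.

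**Figure D2:**
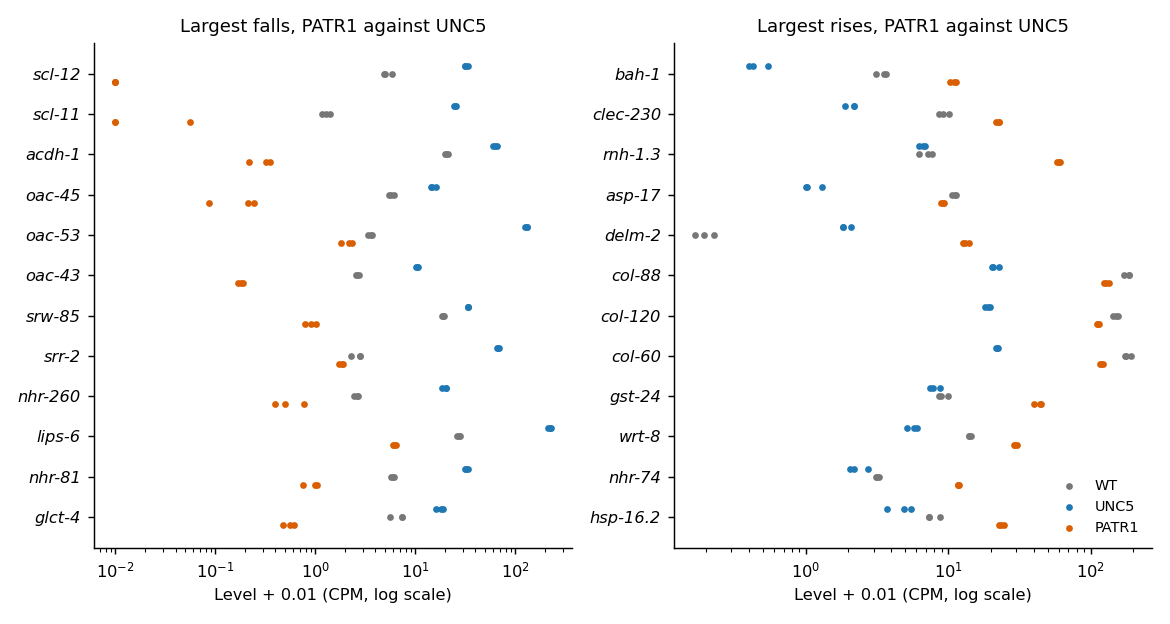
Levels of the 12 largest falls (left) and 12 largest rises (right) of PATR1 against UNC5 among called genes whose mean over the 6 libraries reached 5 CPM, in CPM plus 0.01 on a log scale, with 1 point per library (grey WT, blue UNC5, orange PATR1). A lack of overlap between UNC5 and PATR1 was part of the choice of these genes, and genes with clone names were left out. At scl-12 all PATR1 points lie at 0 counts.

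Several of the strongly lower genes were neighbours. Runs of at least 6 consecutive tested genes called in 1 direction were looked up, a rule chosen after the values had been seen, and gave 4 lower and 11 higher runs. The lower runs from gmd-2 to nhr-165 (13 genes) and from T09E11.10 to E03H4.4 (18 genes) were neighbours on chromosome I. They were joined across the 2 tested genes between them that were not called. The joined stretch spanned 119.2 kb (12292202 to 12411435 in WBcel235). It held 46 annotated genes, 33 of them tested, of which 31 were called lower and none higher. Their median log2 fold change was -5.13, and 5 of the genes had no count in PATR1. Genes such as E03H4.3 and T09E11.6, near 0 CPM in WT and PATR1, passed the count filter only through UNC5. Such genes could only be called lower. The summed level of the 33 genes was 427, 419 and 406 CPM in UNC5, 22.5, 21.3 and 21.8 CPM in PATR1, and 156, 161 and 164 CPM in WT. UNC5 lay above WT and PATR1 below it in all libraries. Against WT the median of the 33 genes was 2.14 in UNC5, with 32 genes above WT on the adjusted p (49.8% of all genes), and -3.41 in PATR1, with 30 below (44.9% of all genes), in comparisons that share the WT libraries. The stretch was chosen by PATR1 lying below UNC5, so these counts are not independent of that choice.

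The stretch mixes unrelated gene families and both strands, with 18 genes on the plus and 15 on the minus strand. gmd-2, at its edge, encodes a GDP-mannose dehydratase, an enzyme of GDP-fucose synthesis, and stood at 82.0, 85.7 and 81.6 CPM in UNC5 and 3.69, 3.27 and 3.29 CPM in PATR1 (log2 fold change -4.60 ± 0.055, adjusted p = 1.6e-34). nhr-81, a nuclear hormone receptor gene, stood at 31.8, 33.6 and 32.1 CPM in UNC5, 0.973, 0.748 and 1.02 CPM in PATR1 and 5.76, 5.94 and 6.19 CPM in WT (log2 fold change -5.13 ± 0.084, adjusted p = 5.9e-31). In both genes every UNC5 library was above WT and every PATR1 library below it.

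oac-45, one of 5 O-acyltransferase homologs in the stretch beside oac-35, oac-36, oac-43 and oac-44, stood at 15.97, 14.6 and 14.4 CPM in UNC5 and 0.204, 0.232 and 0.0756 CPM in PATR1 (log2 fold change -6.51 ± 0.15, adjusted p = 3.9e-27). oac-43, the tested gene after oac-44, stood at 10.3, 10.6 and 10.37 CPM in UNC5 and 0.158, 0.180 and 0.170 CPM in PATR1 (log2 fold change -5.92 ± 0.14, adjusted p = 1.1e-26). glct-4, a glucuronosyltransferase homolog, stood at 18.3, 16.1 and 18.7 CPM in UNC5 and 0.543, 0.464 and 0.605 CPM in PATR1 (log2 fold change -5.02 ± 0.13, adjusted p = 1.7e-21). These groups did not overlap in any of the 3 genes, and WT was between the non-WT groups each time. The clone-named neighbours T09E11.8 and T09E11.9 had means under 0.1 CPM in PATR1. They held 18.3, 15.6 and 14.8 CPM and 8.12, 8.68 and 8.88 CPM in UNC5.

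The 2 genes of the stretch that were not called sit side by side in its middle. C47F8.1 stood at 1.71, 2.14 and 1.95 CPM in UNC5 and 2.42, 2.11 and 2.02 CPM in PATR1 (log2 fold change 0.17 ± 0.13, adjusted p = 0.23), so its groups overlapped while those of genes on both sides did not. The pseudogene WBGene00011660 stood at 4.46, 4.33 and 4.03 CPM in UNC5 and 2.90, 3.14 and 2.97 CPM in PATR1, a difference under 2-fold (log2 fold change -0.51 ± 0.095, adjusted p = 1.5e-05). In every alternative fit that tested all 33 genes 31 of them were called, and with a filter at 5 CPM 18 of 18. That filter, too, kept genes such as nhr-165 and T09E11.8 only through UNC5.

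**Figure D3:**
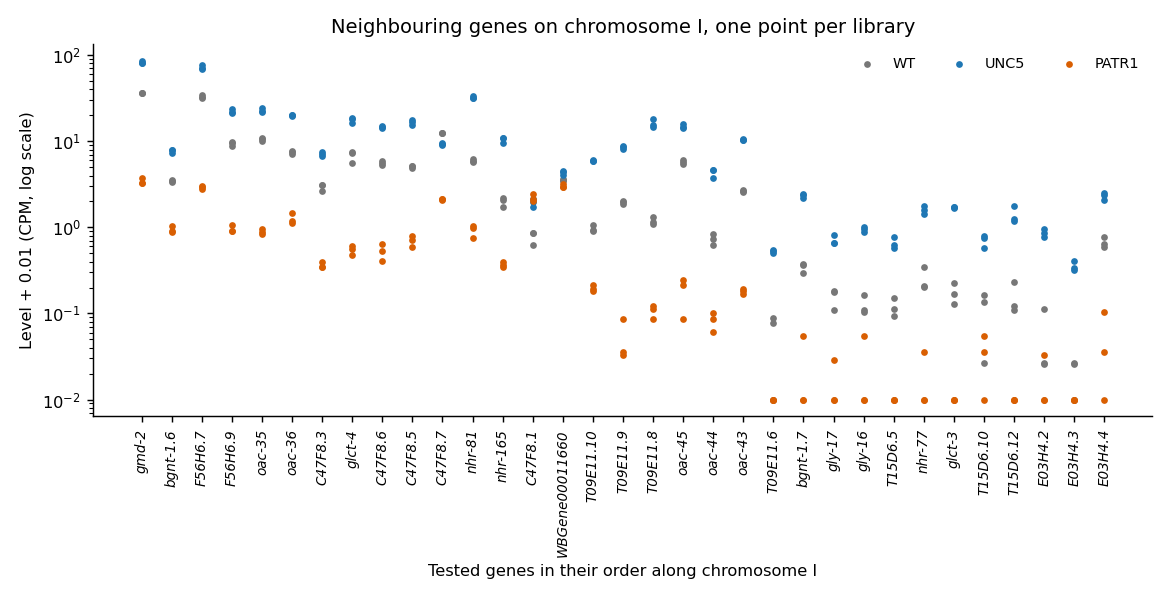
Levels of the 33 tested genes of the stretch on chromosome I, in their order along the chromosome (x axis), in CPM plus 0.01 on a log scale, with 1 point per library (grey WT, blue UNC5, orange PATR1). UNC5 lies above WT and PATR1 below it at most genes; at C47F8.7 UNC5 lies below WT, at C47F8.1 both groups lie above it, and at some genes near 0 CPM PATR1 and WT overlap.

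A shorter stretch on the same chromosome (11443452 to 11488471, 45.02 kb) had the opposite direction. All 10 of its tested genes, of 22 annotated, were called higher, with a median of 2.73, and their summed level was 12.8, 11.5 and 12.2 CPM in UNC5, 102.1 to 103.01 CPM in PATR1 and 64.6 to 69.3 CPM in WT. Inside it lay bah-1 (WBGene00050875, plus strand, chromosome I, 11465142 to 11467612), the largest rise among the named genes, which is known for a role in the attachment of bacterial biofilm to the head cuticle. It stood at 0.535, 0.418 and 0.394 CPM in UNC5 and 10.3, 10.98 and 11.3 CPM in PATR1, with WT between them at 3.09, 3.56 and 3.67 CPM. No groups overlapped, and PATR1 was 24.5-fold higher (log2 fold change 4.603 ± 0.13, adjusted p = 5.7e-25). The clone-named neighbour ZK1025.3 differed more, from 1.68, 1.57 and 1.97 CPM in UNC5 to 57.2, 57.5 and 58.4 CPM in PATR1 (log2 fold change 5.04 ± 0.077, adjusted p = 9.6e-32). It thus held the larger part of the summed PATR1 level. On the adjusted p, PATR1 lay above WT at 8 of the 10 genes and below it at 2, K08C9.1 and K08C9.2. These counts are not independent of the choice of the run by PATR1 against UNC5. nhr-244 and K08C9.5 passed the count filter only through PATR1 and could only be called higher.

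Other runs were shorter or weaker. A run on chromosome V from grsp-4 to C12D5.3 (7624952 to 7676965) held 8 lower genes with a median of -2.68, but their place relative to WT was mixed. At C12D5.5 PATR1 was the group far from WT (-3.39 on the log2 scale, and 0.30 for UNC5), at clec-45 it was UNC5 (-0.89 and 2.82), and at F07C4.10 both lay far below WT (-5.80 and -3.21). A run on chromosome II from Y39F10A.3 to F28A10.4 (781835 to 845239) held 13 higher genes with a median of 1.95, and UNC5 lay farther from WT (median -2.18) than PATR1 (-0.23). On chromosome IV, several of the higher runs were clusters of major sperm protein genes and other sperm genes.

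Rises of PATR1 over UNC5 were smaller and came from different families. rnh-1.3 (WBGene00007303, chromosome I, 9710088 to 9710745), which encodes a ribonuclease H, stood at 6.65, 6.22 and 6.89 CPM in UNC5, 60.9, 58.5 and 59.9 CPM in PATR1 and 7.19, 6.27 and 7.65 CPM in WT. UNC5 overlapped WT, and every PATR1 library was far above both (log2 fold change 3.18 ± 0.058, adjusted p = 8.9e-30). gst-24, a glutathione transferase gene of the oxidative stress response, stood at 7.51, 8.77 and 7.81 CPM in UNC5, 39.9, 44.5 and 44.9 CPM in PATR1 and 8.58, 9.94 and 8.93 CPM in WT, so PATR1 again stood apart (log2 fold change 2.42 ± 0.063, adjusted p = 2.4e-24). Its family did not share the direction: of 44 glutathione transferase genes tested, 7 were higher and 26 lower. nhr-74, a nuclear hormone receptor gene, stood at 2.72, 2.04 and 2.19 CPM in UNC5 and 11.7, 11.99 and 11.7 CPM in PATR1 (log2 fold change 2.35 ± 0.087, adjusted p = 1.9e-21), with 3.09, 3.25 and 3.16 CPM in WT.

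delm-2, a channel subunit of the DEG/ENaC family known from glia, was the 1 of the largest rises with WT below both non-WT groups. It stood at 0.219, 0.184 and 0.159 CPM in WT and at 2.06, 1.82 and 1.82 CPM in UNC5 and 13.98, 13.2 and 12.8 CPM in PATR1 (log2 fold change 2.81 ± 0.087, adjusted p = 1.6e-23). Its groups rose in steps without overlap, from WT through UNC5 to PATR1. asp-17, an aspartyl protease homolog, had another order, with 0.993, 1.303 and 1.01 CPM in UNC5, 9.21, 9.38 and 8.90 CPM in PATR1 and 11.4, 10.7 and 11.2 CPM in WT (log2 fold change 3.06 ± 0.10, adjusted p = 1.4e-22). clec-230, which encodes a protein with a C-type lectin domain, stood at 2.19, 1.87 and 2.19 CPM in UNC5 and 22.7, 22.7 and 21.6 CPM in PATR1 (log2 fold change 3.42 ± 0.081, adjusted p = 1.1e-26), and wrt-8, a hedgehog-related gene near it on chromosome V, at 5.78, 6.02 and 5.14 CPM in UNC5 and 29.6, 29.03 and 30.5 CPM in PATR1 (log2 fold change 2.40 ± 0.060, adjusted p = 4.9e-26). WT lay between the non-WT groups at both genes, at 10.1, 8.63 and 9.23 CPM and 13.99, 14.1 and 14.6 CPM.

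Inducible heat shock genes were among the rises as well. hsp-16.2, a small heat shock protein gene, stood at 4.91, 5.48 and 3.72 CPM in UNC5 and 22.7, 23.5 and 24.7 CPM in PATR1, with WT at 8.73, 7.29 and 7.36 CPM (log2 fold change 2.34 ± 0.094, adjusted p = 1.5e-14). hsp-16.41, a close homolog beside it, stood at 9.85, 8.95 and 9.61 CPM in UNC5 and 32.3, 35.1 and 37.8 CPM in PATR1 (log2 fold change 1.89 ± 0.059, adjusted p = 1.5e-23). PATR1 was above both other groups at these genes. hsp-70 differed in that respect, with 4.99, 5.11 and 5.36 CPM in UNC5, 15.7, 15.6 and 16.7 CPM in PATR1 and 17.96, 19.1 and 18.9 CPM in WT, where UNC5 was the low group (log2 fold change 1.64 ± 0.065, adjusted p = 1.3e-20). hsp-12.1 had the opposite direction (log2 fold change -2.18 ± 0.092, adjusted p = 6.1e-20). Over the whole list of 55 heat shock and unfolded protein genes tested, 36 were higher and 12 lower, with a median of 0.25. Some hsp-16 genes are near-identical copies, and reads that fit several places were left out of the counts.

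Genes of sperm had the highest medians of any gene list. Of the 29 major sperm protein genes tested, which encode the cytoskeletal protein of crawling sperm, 28 were higher and none lower, with a median log2 fold change of 1.62 against -0.04 for all genes. Of 64 other sperm genes, 62 were higher and 1, swm-1, was lower, with a median of 1.49. The summed level of these other genes was 472 to 489 CPM in UNC5, 1156 to 1164 CPM in PATR1 and 1518 to 1570.1 CPM in WT. PATR1 thus lay between UNC5 and WT. Against WT, the medians of the same list were -1.97 in UNC5 and -0.47 in PATR1.

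gsp-3, a sperm-specific protein phosphatase gene, stood at 13.3, 13.8 and 12.5 CPM in UNC5 and 44.2, 46.8 and 45.6 CPM in PATR1 (log2 fold change 1.79 ± 0.048, adjusted p = 3.0e-25), with 68.7, 64.5 and 67.3 CPM in WT. The order UNC5, PATR1, WT had no overlap between groups. spe-11, whose product is brought into the egg by the sperm, had the same order, with 4.58, 5.46 and 5.45 CPM in UNC5, 15.5, 16.3 and 13.8 CPM in PATR1 and 25.997, 26.3 and 24.4 CPM in WT (log2 fold change 1.54 ± 0.076, adjusted p = 4.0e-18). So did alg-3, an Argonaute gene of the sperm-producing germline, at 11.99, 11.9 and 12.1 CPM in UNC5, 40.4, 38.4 and 40.8 CPM in PATR1 and 66.5, 67.9 and 67.9 CPM in WT (log2 fold change 1.73 ± 0.046, adjusted p = 3.0e-25). At msp-51 WT instead lay below PATR1: 14.5, 16.4 and 13.7 CPM in UNC5, 43.3, 51.7 and 44.7 CPM in PATR1 and 30.8, 33.6 and 30.3 CPM in WT (log2 fold change 1.65 ± 0.076, adjusted p = 9.6e-12). PATR1 also lay above WT at msp-55, msp-57 and msp-65 (log2 fold changes of 0.60, 0.57 and 0.45). It lay below WT at msp-38, msp-56 and msp-76 (-0.15, -0.61 and -0.19). Over the 29 major sperm protein genes the median against WT was -1.68 in UNC5 and -0.13 in PATR1. swm-1, a protease inhibitor gene that keeps sperm from activating early, stood at 37.7, 36.1 and 34.4 CPM in UNC5 and 10.8, 10.5 and 10.7 CPM in PATR1 (log2 fold change -1.75 ± 0.055, adjusted p = 2.1e-23). Major sperm protein genes are near-identical copies, so the value of a single one is uncertain.

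Other germline genes were higher too, by less. Of 65 germline and maternal oocyte genes, 59 were higher and 1, fog-3, was lower (median 0.44), and all 42 meiotic chromosome genes tested were higher (median 0.56). Unlike the sperm lists, these had a higher median than WT in both groups, at 0.22 in UNC5 and 0.80 in PATR1 for the meiotic list, beside 0.16 and -0.11 for all genes. glh-1, a Vasa-like helicase gene of the P granules, stood at 278, 294 and 288 CPM in UNC5 and 596, 589 and 579 CPM in PATR1 (log2 fold change 1.04 ± 0.033, adjusted p = 3.5e-23), with WT between them at 454, 449 and 432 CPM. syp-1, a synaptonemal complex gene, stood at 24.2, 25.3 and 25.8 CPM in UNC5, 45.3, 45.4 and 46.5 CPM in PATR1 and 28.9, 30.8 and 27.8 CPM in WT (log2 fold change 0.87 ± 0.045, adjusted p = 1.1e-17). cpb-2, a cytoplasmic polyadenylation element binding protein gene, instead had the order of the sperm genes, at 3.39, 3.81 and 3.19 CPM in UNC5, 9.57, 10.1 and 10.9 CPM in PATR1 and 16.9, 16.2 and 16.8 CPM in WT (log2 fold change 1.56 ± 0.081, adjusted p = 1.3e-17).

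fog-3, which directs germ cells to become sperm, stood at 4.66, 4.35 and 4.18 CPM in UNC5, 3.597, 3.04 and 3.38 CPM in PATR1 and 5.40, 5.02 and 5.28 CPM in WT (log2 fold change -0.39 ± 0.094, adjusted p = 4.2e-04). Its value did not share the direction of the sperm genes. Of 21 eggshell and egg activation genes, 20 were higher and none lower (median 0.33), and of 81 replication and cell cycle genes 74 were higher and 3 lower (median 0.36). Small RNA pathway genes were higher at 51 of 63 and lower at 6. Their 3 members beyond 2-fold were alg-3, alg-4 and wago-10, all Argonaute genes, with log2 fold changes of 1.73, 1.83 and 1.88. P-body and mRNA decay genes were higher at 34 of 46, led by cgh-1 at 0.71 and car-1 at 0.69, a helicase and an RNA-binding protein of germline granules.

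All 6 vitellogenin genes, which the intestine transcribes to make yolk, were higher in PATR1. vit-2 stood at 12193, 12828 and 12439 CPM in UNC5, 29999, 30469 and 28331 CPM in PATR1 and 19354, 19746 and 19975 CPM in WT (log2 fold change 1.25 ± 0.044, adjusted p = 5.5e-22). vit-6 stood at 14288, 14688 and 14512 CPM in UNC5, 32485, 30981 and 28805 CPM in PATR1 and 23496, 22871 and 22956 CPM in WT (log2 fold change 1.09 ± 0.046, adjusted p = 6.6e-20). At both genes UNC5 lay below and PATR1 above WT without overlap, and vit-5 had the same order. At vit-1, vit-3 and vit-4 PATR1 also lay below WT, with log2 fold changes against WT of -1.12, -0.24 and -0.18. Over the 6 genes the median against WT was -0.83 in UNC5 and -0.02 in PATR1. The summed level of the 6 genes was 35051 to 36222 CPM in UNC5, 72739 to 79150.0 CPM in PATR1 and 60000.0 to 60631 CPM in WT. Raw counts are relative within a library, and such abundant genes take part of every other gene's share of them. TMM scaling is meant to correct for this, and what remains was not tested. elt-2, the main transcription factor gene of the intestine, was by contrast slightly lower, at 23.6, 22.8 and 21.5 CPM in UNC5 and 20.9, 19.7 and 20.3 CPM in PATR1 (log2 fold change -0.15 ± 0.051, adjusted p = 0.0064).

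Genes of the nervous system were mostly lower in PATR1, with the largest medians among peptide genes. Of 30 FMRFamide-like peptide genes tested, 28 were lower, 19 of them beyond 2-fold, and 2, flp-3 and flp-6, were higher (median -1.15). Of 68 neuropeptide-like protein genes, 59 were lower and 4 higher (median -1.003). Insulin-like peptide genes were lower at 23 of 32 and higher at 2 (median -1.06). Against WT, the medians of the FMRFamide-like list were 0.42 in UNC5 and -0.62 in PATR1, so UNC5 lay above WT and PATR1 below it.

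flp-33 stood at 7.54, 8.82 and 8.05 CPM in UNC5, 1.83, 2.04 and 2.13 CPM in PATR1 and 10.37, 9.37 and 9.42 CPM in WT (log2 fold change -2.02 ± 0.096, adjusted p = 1.4e-18). nlp-50 stood at 15.2, 16.2 and 15.4 CPM in UNC5, 2.40, 2.78 and 3.08 CPM in PATR1 and 7.26, 7.11 and 6.92 CPM in WT (log2 fold change -2.49 ± 0.079, adjusted p = 2.6e-23). ins-33, an insulin-like peptide gene, stood at 10.7, 11.1 and 10.6 CPM in UNC5, 0.973, 1.44 and 0.926 CPM in PATR1 and 5.74, 5.35 and 5.44 CPM in WT (log2 fold change -3.31 ± 0.11, adjusted p = 3.9e-23). The PATR1 libraries were below every UNC5 library at each of these peptide genes, and the groups were also apart at 79.5% of all genes. The enzymes and release factors that turn peptide precursors into signals were lower by less than 2-fold, at 11 of 12 genes with none higher (median -0.50). Among them were egl-21, a carboxypeptidase that trims the peptides (-0.86), and sbt-1, a chaperone of the processing convertase (-0.93).

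Synaptic and receptor genes had the same direction. Of 48 synaptic vesicle and transmitter genes, 39 were lower and 5 higher (median -0.58), and of 57 transmitter receptor genes 46 were lower and 2 higher (median -0.63). unc-25, which encodes the enzyme that makes GABA, stood at 35.6, 32.98 and 36.9 CPM in UNC5, 14.9, 15.3 and 14.9 CPM in PATR1 and 31.1, 31.2 and 31.4 CPM in WT (log2 fold change -1.23 ± 0.049, adjusted p = 1.1e-20). cpx-1, a complexin gene of synaptic release, stood at 17.4, 17.8 and 16.9 CPM in UNC5 and 7.80, 8.35 and 6.69 CPM in PATR1 (log2 fold change -1.201 ± 0.066, adjusted p = 5.9e-17). UNC5 and PATR1 did not overlap at either gene, as at 79.5% of all genes. unc-29, a subunit gene of the acetylcholine receptor of body wall muscle, stood at 8.05, 8.75 and 8.01 CPM in UNC5 and 4.25, 4.23 and 4.06 CPM in PATR1 (log2 fold change -0.99 ± 0.077, adjusted p = 3.7e-13). Potassium channel genes were lower at 57 of 71 (median -0.62), with twk-48 at -1.34 and twk-7 at -1.24.

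Some genes used throughout the nervous system differed little. The pan-neuronal gene unc-119 stood at 10.2 to 11.4 CPM in UNC5 and 9.14, 10.3 and 10.1 CPM in PATR1, with overlapping groups (log2 fold change -0.15 ± 0.075, adjusted p = 0.077). snb-1, the synaptobrevin gene, stood at 196, 195 and 193 CPM in UNC5 and 187, 177 and 181 CPM in PATR1 (log2 fold change -0.10 ± 0.041, adjusted p = 0.033). rab-3, a synaptic vesicle GTPase gene, was lower, at 29.7, 30.6 and 27.9 CPM in UNC5 and 15.1, 16.7 and 16.4 CPM in PATR1 (log2 fold change -0.87 ± 0.051, adjusted p = 3.0e-16). Touch receptor neuron genes were lower at 14 of 15 (median -0.84), with mec-15 the 1 that was higher. mec-7, the beta-tubulin gene of touch neuron microtubules, stood at 56.2, 59.2 and 58.9 CPM in UNC5, 27.1, 27.1 and 27.8 CPM in PATR1 and 37.3, 38.7 and 37.1 CPM in WT (log2 fold change -1.09 ± 0.040, adjusted p = 1.6e-21), so UNC5 was the group above WT. mec-17, a tubulin acetyltransferase gene, had a log2 fold change of -1.15.

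Ciliated sensory neuron genes had 25 of 62 lower (40.3%, near the 40.9% of all genes) and 4 higher, with a median of -0.21. Of the 1299 serpentine chemoreceptor genes listed, 195 had enough counts, and 92 of these were lower (47.2%) and 24 higher (median -0.54). srr-3 was another of them, at 14.4, 12.8 and 11.5 CPM in UNC5, 0.882, 0.722 and 0.793 CPM in PATR1 and 0.928, 0.736 and 0.777 CPM in WT, so that UNC5 stood apart as at srr-2 (log2 fold change -3.9998 ± 0.12, adjusted p = 2.7e-24).

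The guidance genes to which unc-5 belongs moved by less than the peptide genes. Of 60 tested, 40 were lower and 11 higher, with a median of -0.26, and none of the higher ones passed 2-fold. unc-129, a TGF-beta ligand gene that acts with the netrin receptors in the migration of motor axons, stood at 19.2, 17.99 and 19.3 CPM in UNC5, 6.94, 7.58 and 7.63 CPM in PATR1 and 10.5, 9.30 and 9.61 CPM in WT (log2 fold change -1.35 ± 0.063, adjusted p = 8.5e-19). madd-4, which encodes a secreted protein that attracts muscle arms and organises synapses, stood at 28.5, 29.9 and 32.1 CPM in UNC5 and 11.6, 12.1 and 10.9 CPM in PATR1 (log2 fold change -1.396 ± 0.054, adjusted p = 5.5e-21). slt-1, the Slit cue gene, stood at 27.04, 25.3 and 26.3 CPM in UNC5 and 11.6, 10.7 and 11.1 CPM in PATR1 (log2 fold change -1.23 ± 0.052, adjusted p = 5.1e-20), and the Wnt ligand gene cwn-1 at 19.8, 18.1 and 19.6 CPM in UNC5 and 7.92, 7.89 and 8.37 CPM in PATR1 (log2 fold change -1.25 ± 0.061, adjusted p = 2.6e-18). PATR1 was lower at these 4 genes, the reverse of its direction at unc-5. They were named for the largest changes of the list. Their groups did not overlap, as at 79.5% of all genes.

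Body wall muscle genes were lower almost throughout. Of 51 tested, 49 were lower and 2, tni-3 and unc-45, were higher, with a median of -0.67, and 1 gene, unc-105, passed 2-fold. The summed level was 26369 to 27001 CPM in UNC5, 17939 to 18478 CPM in PATR1 and 24947 to 25617 CPM in WT, so PATR1 was the low group. myo-3, a muscle myosin heavy chain gene, stood at 628, 619 and 640.1 CPM in UNC5, 395, 368 and 375 CPM in PATR1 and 480.4, 519 and 492 CPM in WT (log2 fold change -0.73 ± 0.035, adjusted p = 1.9e-18). unc-54, the major myosin heavy chain gene, stood at 3606, 3645 and 3759 CPM in UNC5, 2908, 2768 and 2728 CPM in PATR1 and 4199, 4481 and 4285 CPM in WT (log2 fold change -0.39 ± 0.039, adjusted p = 1.3e-10). Both had PATR1 lowest, but UNC5 was above WT at myo-3 and below it at unc-54. unc-105, a channel subunit gene of muscle, stood at 31.2, 29.6 and 30.7 CPM in UNC5 and 13.9, 14.1 and 14.8 CPM in PATR1 (log2 fold change -1.09 ± 0.049, adjusted p = 2.9e-19). Pharyngeal muscle genes were lower at 15 of 18 (median -0.45), and pqn-75 was the 1 that was higher (1.46).

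Cuticle collagen genes were more often lower than higher, with large changes in both directions. Of 169 tested, 60.9% were lower (40.9% of all genes), 61 of them beyond 2-fold (11.5% of all genes). The 50 higher genes were 29.6% (37.8% of all genes), 20 of them beyond 2-fold (9.46% of all genes), and the median was -0.53. col-88, col-120 and col-60 were the collagens among the largest rises. col-88 stood at 20.5, 22.8 and 20.5 CPM in UNC5, 125, 134 and 128.97 CPM in PATR1 and 173, 185 and 187 CPM in WT (log2 fold change 2.61 ± 0.043, adjusted p = 3.9e-30), so PATR1 was nearer to WT than UNC5 was. col-120 stood at 18.2, 19.1 and 19.8 CPM in UNC5, 113, 116 and 111.6 CPM in PATR1 and 144, 156 and 152 CPM in WT, and col-60 at 22.3, 22.02 and 21.6 CPM in UNC5, 122, 118.7 and 116 CPM in PATR1 and 191, 175 and 177 CPM in WT. col-19, a collagen gene known as an adult marker, had the same order, at 325, 333 and 336 CPM in UNC5, 768, 781 and 781 CPM in PATR1 and 902, 887 and 894 CPM in WT (log2 fold change 1.23 ± 0.032, adjusted p = 2.2e-25).

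Other collagens were lower. col-176 (chromosome X, 10077597 to 10078728) stood at 317, 314 and 333 CPM in UNC5, 17.4, 17.7 and 17.3 CPM in PATR1 and 206, 189.9 and 197 CPM in WT, with PATR1 the group apart (log2 fold change -4.20 ± 0.041, adjusted p = 5.8e-37). rol-6 and dpy-7, which set body shape, stood at 251, 254 and 261 CPM in UNC5 and 109, 97.9 and 107 CPM in PATR1 (log2 fold change -1.28 ± 0.035, adjusted p = 5.3e-25) and at 83.9, 89.8 and 93.1 CPM in UNC5 and 40.4, 41.2 and 40.9 CPM in PATR1 (log2 fold change -1.12 ± 0.047, adjusted p = 1.4e-17). WT held 104.04, 105.3 and 102 CPM of rol-6 and 48.3, 55.9 and 54.3 CPM of dpy-7, so UNC5 was the high group at both. col-37 and col-51 were near 0 in PATR1 and low in UNC5. col-37 stood at 5.32, 5.01 and 5.93 CPM in UNC5 and 0, 0.0258 and 0 CPM in PATR1, 1 PATR1 count in all, and at 373, 360.3 and 359 CPM in WT. col-51 stood at 7.03, 6.59 and 6.32 CPM in UNC5, 0.0452, 0.0773 and 0.0189 CPM in PATR1 and 141, 141 and 141 CPM in WT. Here both non-WT groups lay far below WT, with PATR1 the lower (adjusted p = 6.4e-24 and adjusted p = 3.8e-25).

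Other genes of the epidermis and its matrix were mostly lower. Hedgehog-related and patched-related genes were lower at 63 of 81 and higher at 8 (median -0.84). ptr-22 of this group stood at 14.2, 14.5 and 13.8 CPM in UNC5, 1.04, 1.01 and 0.869 CPM in PATR1 and 1.35, 1.91 and 1.51 CPM in WT (log2 fold change -3.87 ± 0.10, adjusted p = 4.0e-25), with UNC5 apart. Moulting and apical matrix genes were lower at 53 of 74 (median -0.53), among them the lipocalin gene lpr-1 at 14.9, 13.5 and 13.1 CPM in UNC5 and 3.35, 3.56 and 3.38 CPM in PATR1 (log2 fold change -2.01 ± 0.078, adjusted p = 5.4e-21). fbn-1, a fibrillin-related matrix gene, stood at 113.5, 109 and 113 CPM in UNC5 and 29.4, 28.4 and 27.9 CPM in PATR1 (log2 fold change -1.97 ± 0.038, adjusted p = 3.8e-29), and the ZP domain genes noah-1 and noah-2 had log2 fold changes of -1.42 and -1.43. Basement membrane genes were lower at 24 of 30, with none beyond 2-fold.

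Genes that time development had PATR1 low as well, at 14 of 19 with 2 higher (median -0.49). lin-42, the period homolog that cycles with the moults, stood at 358, 345 and 343 CPM in UNC5, 162, 160.0 and 152 CPM in PATR1 and 277, 288 and 302 CPM in WT (log2 fold change -1.14 ± 0.035, adjusted p = 1.2e-23). lin-46, another timing gene, stood at 10.8, 10.6 and 10.3 CPM in UNC5, 3.48, 3.04 and 2.95 CPM in PATR1 and 4.09, 3.68 and 3.84 CPM in WT (log2 fold change -1.74 ± 0.081, adjusted p = 7.8e-19). nhr-25, a nuclear receptor gene of epidermal development and moulting, was not among the 19 timing genes. It stood at 26.7, 28.1 and 25.4 CPM in UNC5, 11.6, 10.3 and 10.7 CPM in PATR1 and 12.8, 12.96 and 14.03 CPM in WT (log2 fold change -1.296 ± 0.057, adjusted p = 1.9e-19). PATR1 was the lower non-WT group at lin-42, lin-46 and nhr-25, without overlap. Exact age at collection was not labelled, and its part in these differences cannot be told apart from genotype.

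Genes of metabolism split by pathway. Mitochondrially encoded protein genes were lower at 10 of 12 and higher at 1 (median -0.93). ND6, a complex I subunit gene, stood at 333, 308 and 348 CPM in UNC5, 75.6, 72.5 and 66.6 CPM in PATR1 and 85.1, 82.2 and 91.2 CPM in WT (log2 fold change -2.21 ± 0.054, adjusted p = 4.3e-15), so PATR1 was nearer to WT and UNC5 was high. The summed level of the 12 genes was 32384 to 34544 CPM in UNC5, 18906 to 19278 CPM in PATR1 and 19155 to 21875 CPM in WT. Nuclear genes of the respiratory chain were lower at 52 of 66, but by less (median -0.21). Their largest changes were rises, of ucr-2.3 at 0.89, nduf-2.2 at 0.73 and sdha-2 at 0.70.

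Ribosome and proteasome genes had the other direction. Cytosolic ribosomal protein genes were higher at 60 of 80 (median 0.21) and all 33 proteasome genes were higher (median 0.29). Mitochondrial ribosomal protein genes did not lean either way, with 17 higher and 16 lower of 69, and a median of 0.01 whose sign changed with the settings.

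Of 94 fatty acid and lipid genes, 51 were lower and 29 higher (median -0.21). acs-2, an acyl-CoA synthetase gene that is switched on by fasting, stood at 28.7, 28.6 and 28.4 CPM in UNC5, 4.28, 4.23 and 3.91 CPM in PATR1 and 222, 239 and 243 CPM in WT (log2 fold change -2.79 ± 0.060, adjusted p = 1.0e-27). Both non-WT groups were far below WT, and PATR1 was the lower. acox-1.2, a peroxisomal acyl-CoA oxidase gene, stood at 118, 120.0 and 121 CPM in UNC5 and 24.1, 23.6 and 23.2 CPM in PATR1 (log2 fold change -2.34 ± 0.039, adjusted p = 1.0e-30). pck-1 and aldo-1, genes of gluconeogenesis and glycolysis, were lower (-1.31 and -1.104), and pfk-1.2, a phosphofructokinase gene, was higher, at 3.28, 2.80 and 3.04 CPM in UNC5 and 10.7, 10.6 and 9.41 CPM in PATR1 (log2 fold change 1.74 ± 0.085, adjusted p = 2.6e-18). cpr-1, an intestinal cathepsin B gene, stood at 342, 351 and 351 CPM in UNC5 and 72.1, 77.3 and 77.5 CPM in PATR1 (log2 fold change -2.201 ± 0.036, adjusted p = 5.9e-31). ftn-1, a ferritin gene of the intestine, had a log2 fold change of -1.03.

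Nuclear hormone receptor genes, a large family of transcription factors in this nematode, were lower at 154 of 221 and higher at 15 (median -0.42). That is more lower genes than the 40.9% of all genes, without a test of the difference. nhr-165, beside nhr-81 in the stretch on chromosome I, stood at 10.8, 11.04 and 9.50 CPM in UNC5 and 0.385, 0.335 and 0.359 CPM in PATR1 (log2 fold change -4.84 ± 0.14, adjusted p = 1.0e-24). O-acyltransferase homologs were lower at 28 of 49 and higher at 11 (median -0.76). oac-39, on chromosome V and outside that stretch, stood at 8.71, 8.65 and 8.82 CPM in UNC5 and 0, 0.0258 and 0.0378 CPM in PATR1, 3 PATR1 counts in all, and at 1.72, 1.44 and 1.71 CPM in WT (396 times higher in UNC5, 95% exact counting interval 135 to 1921). pho-10, an acid phosphatase homolog, stood at 30.1, 32.6 and 32.99 CPM in UNC5, 4.30, 3.92 and 4.08 CPM in PATR1 and 0.675, 0.569 and 0.460 CPM in WT, with both non-WT groups above WT and UNC5 the higher (log2 fold change -2.96 ± 0.067, adjusted p = 2.8e-27).

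Defence genes leaned lower to different degrees, read against 40.9% lower among all genes. Lysozyme, saposin and antimicrobial peptide genes were lower at 77 of 95, 47 beyond 2-fold, and higher at 9 (median -0.96). fipr-11 stood at 24.4, 23.6 and 24.5 CPM in UNC5, 1.97, 2.14 and 1.79 CPM in PATR1 and 10.43, 9.65 and 9.34 CPM in WT (log2 fold change -3.63 ± 0.077, adjusted p = 5.3e-28). irg-4, a gene induced by infection, stood at 35.7, 35.6 and 37.4 CPM in UNC5, 3.30, 3.33 and 3.42 CPM in PATR1 and 7.53, 8.46 and 8.08 CPM in WT (log2 fold change -3.43 ± 0.064, adjusted p = 1.6e-29). The PATR1 libraries were below the UNC5 libraries at both. C-type lectin genes moved both ways, with 84 of 166 lower (50.6%) and 47 higher (28.3%, against 37.8% of all genes). Their log2 fold changes ran from -3.71 at clec-45 to 3.43, with clec-61 at -3.28 and clec-230 at 3.42.

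Cytochrome P450 genes were lower at 38 of 68 and higher at 7 (median -0.44), and UDP-glucuronosyltransferase genes at 42 and 9 of 65 (median -0.36). ugt-65 stood at 42.7, 43.1 and 43.5 CPM in UNC5 and 9.41, 10.3 and 10.1 CPM in PATR1 (log2 fold change -2.12 ± 0.048, adjusted p = 3.1e-27). F-box, MATH and BTB domain genes were split, with 94 higher and 88 lower of 304 (median 0.09). dod-22, a gene downstream of the insulin pathway factor DAF-16, stood at 132, 133 and 134 CPM in UNC5, 32.8, 32.8 and 32.6 CPM in PATR1 and 34.6, 35.6 and 35.6 CPM in WT (log2 fold change -2.02 ± 0.035, adjusted p = 2.1e-30).

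**Figure D4:**
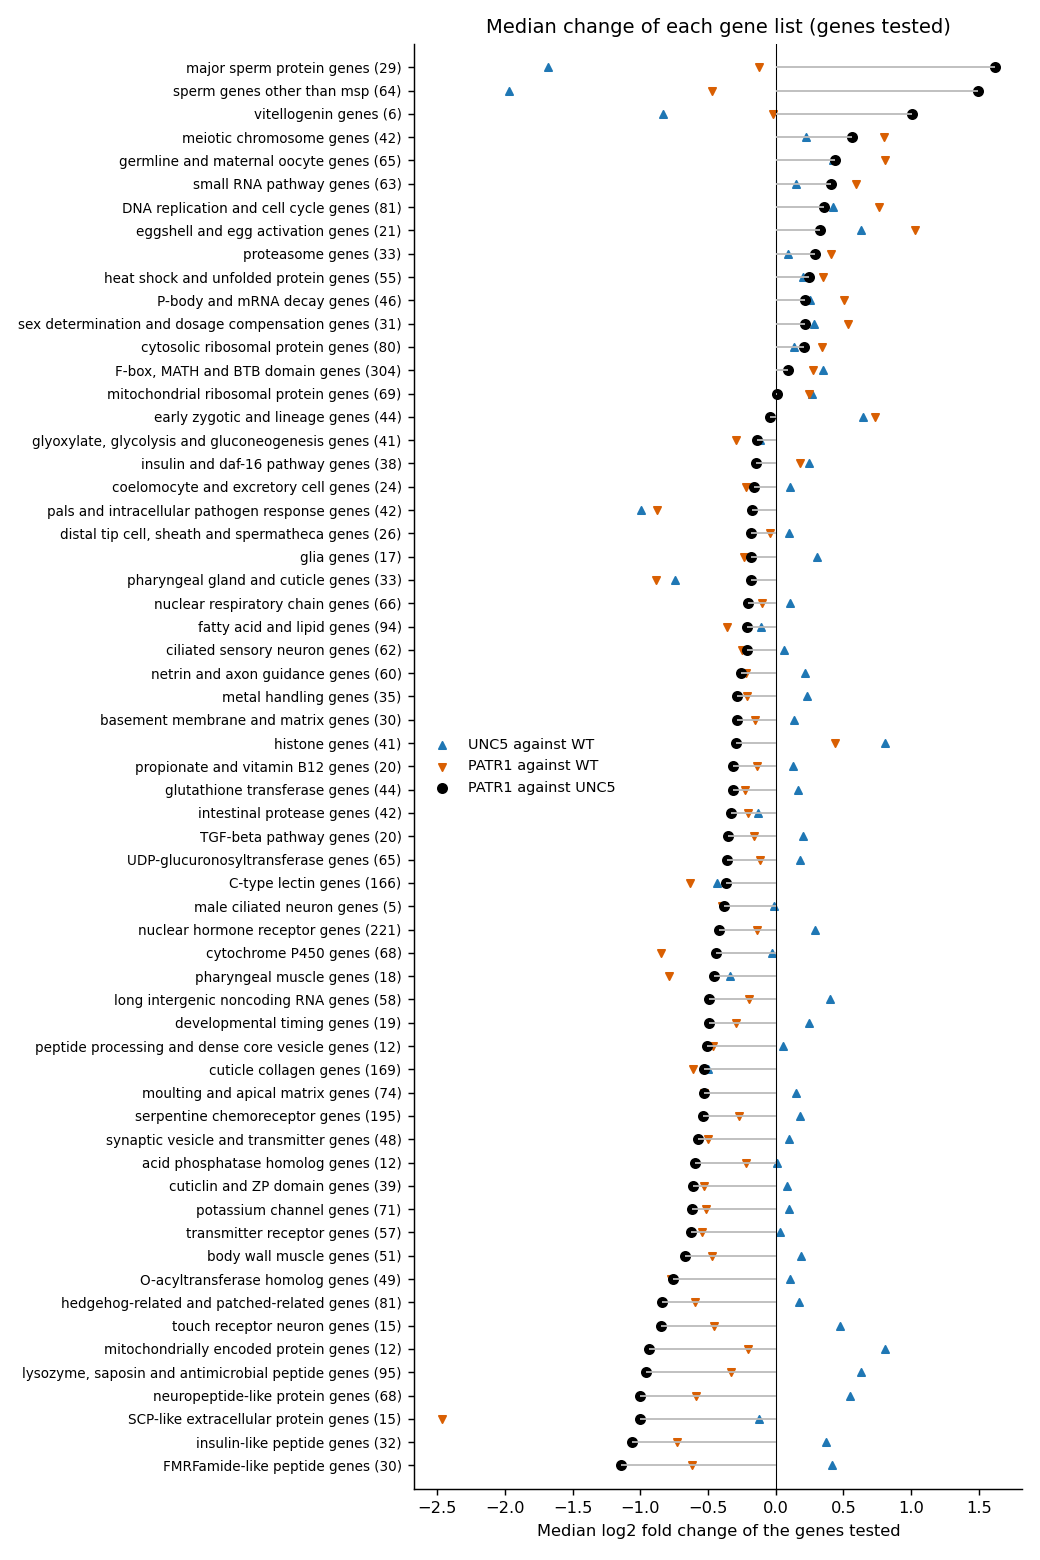
Median log2 fold change of the tested genes of each of 61 gene lists (numbers of genes in brackets), for PATR1 against UNC5 (black circles), UNC5 against WT (blue upward triangles) and PATR1 against WT (orange downward triangles). The black medians run from -1.15 for FMRFamide-like peptide genes to 1.62 for major sperm protein genes, and the triangles share the WT libraries.

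The called genes were unevenly spread over the chromosomes, described here with no test. On the X chromosome 41 of 2458 tested genes were called higher (1.67%, against 9.46% of all genes) and 300 lower (12.2%, against 11.5%), and the median of the chromosome was -0.34. Chromosome V had the largest share of lower genes, with 665 of 3769 (17.6%), and chromosome IV the largest share of higher ones, with 429 of 2952 (14.5%). Within 2 Mb of unc-5 on chromosome IV, 217 of 737 tested genes were called (29.4%, against 25.2% of the chromosome and 20.9% of all genes), 140 of them higher, and the window holds clusters of sperm genes.

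Among annotated gene types, pseudogenes were called higher at 163 of 733 (22.2%) and lower at 59 (8.05%). Long intergenic noncoding RNAs had the opposite split, with 3 higher and 21 lower of 73 tested. Protein-coding genes, at 1482 higher and 1877 lower of 16475, were close to the whole set.

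**Figure D5:**
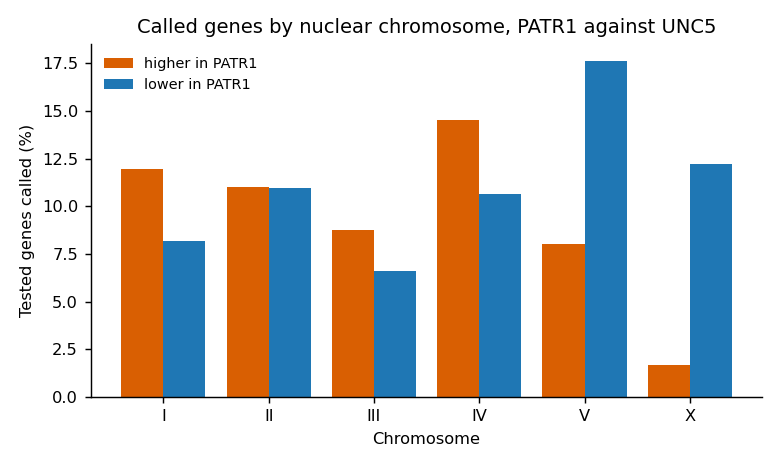
Share of the tested genes on each nuclear chromosome that were called higher (orange) or lower (blue) in PATR1 than in UNC5, in percent, with the y axis from 0. The X chromosome has few higher genes (1.67%), and chromosome V has the largest share of lower genes (17.6%).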

How the data were processed

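Poly(A)-selected RNA of whole animals was sequenced in 9 libraries, 3 per labelled genotype. The authors deposited raw read counts per gene, with no normalization, as the gene count tables of STAR, and the reverse-strand counts were used, which hold 41.9 to 57.1 times as many reads as the opposite strand. The submitters' processing notes name FastQC 0.11.9, cutadapt 3.5, STAR 2.7.11b and the build WBcel235. The deposited files count multi-mapping reads separately, so genes with near-identical copies are uncertain. Names and positions came from the Ensembl annotation of WBcel235 given with the files, which held 46918 of the 46926 genes.

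Genes were filtered with filterByExpr, scaled with TMM factors and fitted over all 9 libraries with the robust quasi-likelihood model of edgeR 4.0.16 in R 4.3.3, with Benjamini-Hochberg adjustment over all 17512 genes. The common biological coefficient of variation was 3.14%. Between libraries of the same label the median chi-square per gene was 1.44 to 2.24 times that of counting error. CPM use the scaled library sizes, errors of log2 fold changes are standard errors of the fit, and folds are ratios of pooled counts over scaled sizes. Where a group had 0 counts, 3 counts for the whole group served as its floor, and ratios with 1 to 3 counts have a 95% exact interval, which covers counting error only.

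The 61 gene lists, described by counts and medians with no set test, and the rules below were chosen with earlier results of these data known. Named were unc-5 and patr-1, 12 rises and 12 falls by log2 fold change among called genes with at least 5 CPM, a proper symbol (clone names left out) and groups that did not overlap, 8 genes per direction by CPM difference, up to 4 members per list, up to 8 genes per direction with WT between the groups, and genes under 0.1 CPM in 1 group and over 5 CPM in the other. This gave 260 genes, of which the text prints some, beside markers of tissues. The runs of neighbours, their members, and single exceptions to a list were picked after their values were seen. The fit was tested on simulated data for PATR1 against UNC5 with 17271 genes, counting an adjusted p below 0.05 with no fold limit. Of 100 genes changed 1.5-fold 74 were recovered, of 100 changed 3-fold 98, and 8 unchanged genes passed. Few genes were changed there, so the simulation does not cover data in which 78.7% of the genes differ. Alternatives were other scalings and filters, DESeq2 1.42.0, unstranded counts, fewer libraries and a replicate block. Python 3.11.15 with pandas 2.3.3, scipy 1.17.1 and matplotlib 3.10.9 did the rest. No sequences were used here.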

Additional observations from a re-analysis of the deposited data

Results flagged for a closer look

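Reads outside the gene counts differed from the WT libraries in both non-WT groups. Reads with no place in the genome averaged 4.1% of all reads in PATR1 (2.86% to 6.02%) and 0.783% in UNC5 (0.667% to 0.937%), against at most 0.629% in WT. Reads in no annotated gene averaged 1.22% in UNC5 (1.11% to 1.32%) and 0.72% in PATR1 (0.678% to 0.748%), against at most 0.647% in WT. So the larger share belonged to PATR1 in the first class and to UNC5 in the second. The source of these reads was not analysed here, and their part in the differences between the groups was not tested.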

How the results depend on the processing

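The count of 3666 called genes stayed within 1.5 times under every alternative scaling, test and set of libraries. It changed with the filter and the threshold. With at least 5 CPM in 3 libraries, which left 11491 genes, 1842 were called, 810 higher and 1032 lower. With no low-count filter 3777 of 26606 genes were called, and more were higher (1984) than lower (1793), the reverse of the other settings. Without the 2-fold limit there were 13774, of which 6614 were higher and 7160 lower. Leaving out each UNC5 or PATR1 library in turn gave 3702 to 3757 calls, and 3143 genes were called in all of these fits. The median of all genes was -0.04 with TMM factors, -0.11 with unscaled library sizes and 0.01 with relative log expression factors. patr-1, at -0.04, changed sign with relative log expression factors (0.0126) and DESeq2 (0.0126), and with no low-count filter it was 0.111 (adjusted p = 0.00206). It passed in the other direction with unscaled library sizes (-0.106, adjusted p = 0.00249). The same held with at least 5 CPM in 3 libraries (-0.0847, adjusted p = 0.0134). Of the 260 named genes, linc-7, mrpl-35 and xbx-5 missed the adjusted p of 0.05 under some settings. Values resting on few PATR1 counts moved by over 1.5 times without 1 PATR1 library, namely scl-11, col-37, oac-39, T09E11.9 and F57F4.2. The medians of 4 of 61 lists changed sign under a setting. Without UNC5 replicate 2 the median of pharyngeal gland and cuticle genes went from -0.19 to -0.07. With the replicate number as a block 3664 genes were called (1655 higher, 2009 lower). Same-numbered libraries of both groups correlated at 0.046, 0.011 and 0.021 in their deviations from the group means, so the numbers were not taken to pair them. Depth limits genes near 0 counts.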

Other observations

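The counts below are read against the 37.8% of all genes that were higher and the 40.9% that were lower. Early zygotic and lineage genes had 12 higher and 15 lower of 44 tested (median -0.04, with a sign that changed with the settings), and genes of the distal tip cell, gonadal sheath and spermatheca had 7 higher and 12 lower of 26. Histone genes had 12 higher and 17 lower of 41 (median -0.29, and -0.19 without PATR1 replicate 3). hil-7, a linker histone gene, stood at 8.20, 7.005 and 8.21 CPM in UNC5, 3.82, 3.02 and 3.53 CPM in PATR1 and 2.92, 2.99 and 3.13 CPM in WT (log2 fold change -1.17 ± 0.090, adjusted p = 3.2e-13), while poly(A) selection limits what can be read of most core histone genes. Insulin and daf-16 pathway genes had 13 higher and 21 lower of 38 (55.3% lower). Glycolysis, gluconeogenesis and glyoxylate genes had 9 higher and 25 lower of 41 (61.0% lower). The medians of both lists, -0.15 and -0.13, changed sign with no low-count filter.

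Sex determination and dosage compensation genes were higher at 17 of 31 and lower at 6 (median 0.21). fem-3, which directs sperm formation in the hermaphrodite germline, stood at 48.4, 46.2 and 48.6 CPM in UNC5, 73.5, 72.8 and 71.03 CPM in PATR1 and 28.6, 27.8 and 28.3 CPM in WT (log2 fold change 0.60 ± 0.037, adjusted p = 8.0e-16). Glia genes were higher at 4 of 17 and lower at 10 (median -0.19), with ptr-10 at -1.60 and the DEG/ENaC channel genes acd-1 at 1.199 and delm-2 at 2.81. Pharyngeal gland and cuticle genes had 4 higher and 15 lower of 33. Genes of the intracellular pathogen response had 10 higher and 19 lower of 42, with pals-6 at 0.53 and pals-18 at -0.79.

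Metal handling genes were lower at 23 of 35 and higher at 7, led among members of at least 5 CPM by the zinc transporter gene zipt-2.2 (-1.39). Intestinal protease genes had 12 higher and 22 lower of 42, from cpr-1 at -2.201 to asp-17 at 3.06. TGF-beta pathway genes were lower at 15 of 20 and higher at 2, with sma-2, a Smad gene of body size control, at 11.1, 11.4 and 10.6 CPM in UNC5, 5.72, 6.44 and 5.86 CPM in PATR1 and 7.70, 8.16 and 7.54 CPM in WT (log2 fold change -0.88 ± 0.070, adjusted p = 5.8e-13). Coelomocyte and excretory cell genes were lower at 12 of 24 (50%) and higher at 4, with aqp-2, an aquaporin gene, at 264, 275 and 267 CPM in UNC5, 101, 103.4 and 106 CPM in PATR1 and 165, 162 and 166 CPM in WT (log2 fold change -1.38 ± 0.032, adjusted p = 4.5e-27). Cuticlin and ZP domain genes were lower at 26 of 39 and higher at 1 (median -0.61).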
